A study of Oncorhynchus mykiss with 8 samples.

Results

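The transcripts described here are those of the fatty acyl desaturases that make long-chain polyunsaturated fatty acids, read by 2 of the 43603 gene probes of a salmonid microarray in white muscle of large and small rainbow trout. The probes, A_05_P248839 and A_05_P249614, were chosen by their identifiers. A_05_P248839 appears as delta-6 fatty acyl desaturase in the study's list for large Dec. muscle, so the large against small ratio in the Dec. lot is a value that chose it and is given below as a description without a test. The name is not settled, since the platform annotation gives A_05_P248839 the symbol fadsd5, a delta-5 desaturase. A_05_P249614 has the platform symbol fadsd6 and was not listed by the study for muscle or liver. The probes are therefore called by their identifiers.

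The delta-6 desaturase puts the first new double bond into linoleic and alpha-linolenic acid, the plant-derived essential fatty acids, and is regarded as the rate-limiting step on the way to arachidonic, eicosapentaenoic and docosahexaenoic acid. The delta-5 desaturase acts later in the same route, after an elongase has lengthened the chain. In Atlantic salmon both activities come from closely related members of the Fads2 gene family, and liver and intestine are the tissues best known for them. White muscle makes up most of the fillet of a trout. The probes were designed on Atlantic salmon sequences and hybridised to trout RNA, and whether they separate the transcripts of these related genes was not tested.

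All fish were immature trout of the Lyndon strain, reared lot by lot in a common environment on a commercial feed. They were taken at about the same age from a Dec. and a Sept. spawning lot, each bred from several dams and a single sire. The lots had different parents and sampling dates, near the winter solstice for the Sept. lot and toward the spring equinox for the Dec. lot. Parents, sampling date and photoperiod therefore cannot be told apart in a comparison of the lots. A pool held muscle mRNA of 5 large or of 5 small fish, 1 per half-sib family, so that a pool says nothing of single fish. Each lot had 2 pairs of a large and a small pool, and each pair was hybridised on 2 arrays, once with the large fish in Alexa Fluor 555 and once with the large fish in Alexa Fluor 647, which made 8 arrays in all. Both arrays of a pair hold the same RNA and count as 1 replicate (n = 2 pool pairs per lot). By the paper's design the pairs of a lot differ in size rank. The largest fish of each family were set against the second smallest, and the second largest against the smallest.

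All values are log2(large/small), positive where the transcript was more abundant in large fish, and the few pool pairs and arrays limit their precision. The ratios come without signal intensities and cannot show whether a probe or a muscle marker was strongly or weakly expressed. The direction of the ratio is a likely one: the labels do not say which size class was divided by which, and the sign was taken from 966 of 966 probe listings of the study that matched it. Those listings came from these same arrays, so the match shows how the study read the columns and is no independent check. Between 41909 and 43249 probes had a value on an array. The swapped arrays of a pair correlated over 38488 probes at -0.28 and 0.50 in Dec. pairs 1 and 2 and at -0.19 and -0.12 in Sept. pairs 1 and 2, so Dec. pair 2 was the only pair whose repeat hybridisations ran the same way over all probes.

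In the Dec. lot A_05_P248839 was higher in large fish on 4 of 4 arrays, and most of its mean came from pool pair 2. Pair 2 gave 2.28 with the large fish in Alexa Fluor 555 and 2.28 with the dyes exchanged. Pair 1 gave 0.69 and 0.38. Both arrays of pair 2 thus stood far above both arrays of pair 1. As folds, the large pool had 4.85 times the signal of the small pool in pair 2 and 1.45 times in pair 1. Nearly all deposited ratios of these arrays (99.7% and 99.8%) lie on steps of 0.001, and both columns hold 0.206 for small over large. On these arrays 87 of 41690 probes had equal readings, 5 of them more than 1 from 0 on the log2 scale.

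The mean over the pool pairs of the Dec. lot was 1.41 ± 1.23 (SD, n = 2), a 2.65-fold higher signal in large fish. The spread was of the size of the mean. Among 39770 probes with a value on all Dec. arrays, 130 (0.327%) had a mean as high, but an SD as large was found for only 0.883% of probes, against a median SD of 0.12. Probes above 0 on all 4 Dec. arrays made up 7.29% of all.

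In the Sept. lot A_05_P248839 gave 0.39 and -0.23 in pair 1 and 0.44 and 0.23 in pair 2, the array with the large fish in Alexa Fluor 555 first each time. It was above 0 on 3 of 4 arrays, and the reading with Alexa Fluor 555 was the higher one in both pairs. The mean was 0.21 ± 0.18 (SD, n = 2), or 1.15-fold, and did not pass the test (limma, unadjusted p = 0.65, adjusted p = 0.9996). The lowest adjusted p over all 41524 probes was also 0.9996. The test used the spread of both lots (limma SE 0.43). For this probe most of that spread lay between the Dec. pairs (SD 1.23), which hold the contrast that chose it. With the Sept. lot fitted alone its adjusted limma p was 0.92, and the lowest over all probes was 0.57. A mean as high was found for 6.73% of probes. Probes above 0 on all 4 Sept. arrays made up 4.73% of all.

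A_05_P249614, the probe with the delta-6 symbol, gave 1.09 and 0.19 in Dec. pair 1 and 2.02 and -0.11 in Dec. pair 2, again with Alexa Fluor 555 first. It was above 0 on 3 of 4 Dec. arrays, and the high readings were those with the large fish in Alexa Fluor 555. The pool pairs, averaged over the dyes, stood at 0.64 and 0.95, closer together than those of the other probe. The Dec. mean was 0.80 ± 0.23 (SD, n = 2), a 1.74-fold higher signal in large fish, and 675 probes (1.70%) had a mean as high.

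In the Sept. lot A_05_P249614 gave -0.26 and 0.30 in pair 1 and 0.01 and 0.65 in pair 2. Here the readings with the large fish in Alexa Fluor 647 were the high ones. The mean was 0.17 ± 0.22 (SD, n = 2), or 1.13-fold, and did not pass the test (limma, unadjusted p = 0.25, adjusted p = 0.9996, again the lowest of all probes). A mean as high was found for 9.14% of probes.

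**Figure D1:**
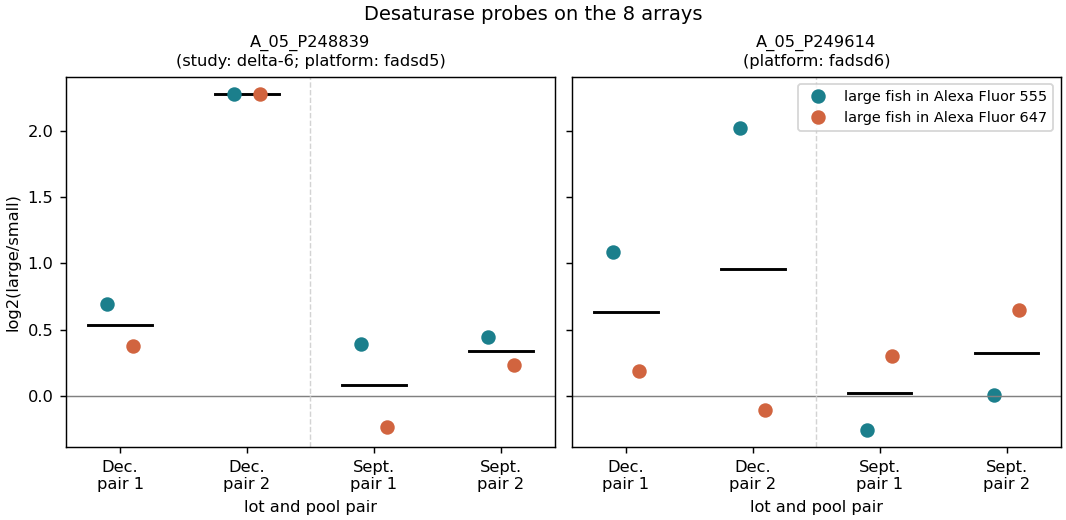
Log2(large/small) of both desaturase probes by lot and pool pair, 1 point per array coloured by the dye of the large pool, with a bar at the mean of each pool pair. A_05_P248839 reads 2.28 on both arrays of Dec. pair 2 and at most 0.69 elsewhere, while A_05_P249614 is split by dye in both lots.

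In each pool pair, the dye orientations of A_05_P249614 differed by more than its mean over the lot. The reading with the large fish in Alexa Fluor 555 minus that with Alexa Fluor 647 was 0.90 and 2.13 in Dec. pairs 1 and 2 and -0.56 and -0.64 in Sept. pairs 1 and 2. The orientations did not overlap within either lot. The Alexa Fluor 555 arrays were the higher ones in the Dec. lot and the lower ones in the Sept. lot. This order, without overlap, was found for 3.39% of 38488 probes. The half-difference in Dec. pair 2, 1.06, was matched or passed by 327 of 41690 probes (0.784%), and the median over all probes was 0.10. For A_05_P248839 the half-difference was 0.16 and 0.00 in the Dec. pairs and 0.31 and 0.11 in the Sept. pairs, against medians of 0.15, 0.10, 0.12 and 0.12 over all probes. With the Alexa Fluor 555 arrays alone the Dec. mean of A_05_P249614 was 1.55, and with the Alexa Fluor 647 arrays alone it was 0.04. The part of the dye in the value was not tested further.

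The mean log2(large/small) of A_05_P248839 was 1.41 in the Dec. lot and 0.21 in the Sept. lot, a difference of 1.199 that 154 of 38488 probes (0.400%) matched or passed. Its lots overlapped, since the lowest Dec. array (0.38) lay below the highest Sept. array (0.44). For A_05_P249614 the means were 0.80 and 0.17, a difference of 0.62 that 1444 probes (3.75%) matched or passed, and its lots overlapped on several arrays. Probes with each Dec. array above each Sept. array made up 1.45% of all. No test is given for the difference of the lots, which contains the contrast that chose A_05_P248839.

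Averaged over the dyes, both probes ranked the pool pairs alike, with Dec. pair 2 highest (2.28 for A_05_P248839 and 0.95 for A_05_P249614), then Dec. pair 1 (0.53 and 0.64), Sept. pair 2 (0.34 and 0.33) and Sept. pair 1 (0.08 and 0.02). On single arrays they ran apart. A_05_P248839 minus A_05_P249614 was -0.39 and 0.19 in Dec. pair 1, 0.26 and 2.39 in Dec. pair 2, 0.65 and -0.53 in Sept. pair 1, and 0.44 and -0.42 in Sept. pair 2. In both Sept. pairs the sign turned with the dye, and the widest gap was on the Alexa Fluor 647 array of Dec. pair 2. Averaged over the dyes, the difference was 0.61 ± 1.01 in the Dec. lot and 0.04 ± 0.04 in the Sept. lot (SD, n = 2 each). Over the 8 arrays, which share pools and lots, the correlation of the probes was 0.41 (Pearson) and 0.07 (Spearman), and over the 6 arrays without Dec. pair 2 it was 0.25. Of the 1387 other named probes, 401, counting A_05_P249614 itself, correlated with A_05_P248839 at least as well as A_05_P249614 did. Over all 38487 other probes, named or not, 6030 did.

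The named probe most like A_05_P248839 over the 8 arrays was fucolectin-4 precursor (A_05_P463327), whose product belongs to the fucose-binding lectins, with a Pearson r of 0.98. It gave 3.05 and 2.75 in Dec. pair 2 and 1.204 and 0.12 in Dec. pair 1. Acidic mammalian chitinase-like (A_05_P391302, r = 0.97), a chitin-degrading enzyme, the mgc82112 protein (A_05_P250149, r = 0.97), an arf-gap protein (A_05_P431317, r = 0.97) and a hemoglobin subunit beta probe (A_05_P488772, r = 0.96) came next. All of these were highest in Dec. pair 2. The profile they were chosen to resemble peaks there, so this is no separate result. In all, 203 probes (0.527% of 38487) reached an r of 0.9. The 3 probes that stayed nearest to it on every array, within 0.34, 0.47 and 0.48, had no name.

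The named probes most like A_05_P249614 were another set. They were LOC100136589 (A_05_P249594, r = 0.93), thymosin beta-a (A_05_P261819, r = 0.92), an actin-binding protein, B-cell receptor CD22 precursor (A_05_P267034, r = 0.91), trichohyalin (A_05_P439982, r = 0.90) and LOC100136565 (A_05_P487227, r = 0.90). Trichohyalin gave 4.45 and -0.45 on the swapped arrays of Dec. pair 2, the same split by dye as A_05_P249614, for whose likeness it was chosen. Here 76 probes (0.197%) reached an r of 0.9, and the nearest 3, within 0.37, 0.40 and 0.43 on every array, had no name.

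**Figure D2:**
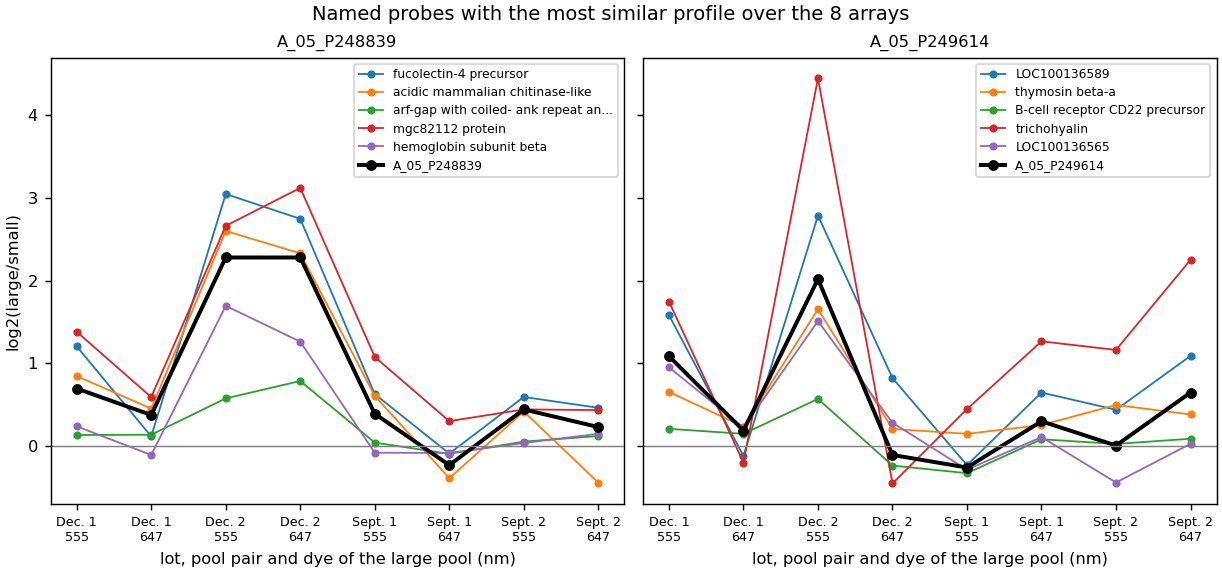
Log2(large/small) on the 8 arrays (lot, pool pair and dye of the large pool) of each desaturase probe in black and of the 5 named probes that correlate best with it. The profiles on the left peak on both arrays of Dec. pair 2, and those on the right peak on its Alexa Fluor 555 array. So do the desaturase probes that they were chosen to resemble.

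The array also names 2 elongase probes. The route needs such enzymes, as elongases lengthen the chain between desaturation steps, though elovl1 itself is known for saturated and monounsaturated chains. Elongation of very long chain fatty acids protein 1 (A_05_P457892) averaged 0.49 ± 0.23 in the Dec. lot and 0.56 ± 0.23 in the Sept. lot (limma SE, as for all values with ± from here on). Its like-named probe (A_05_P321262) averaged 0.29 ± 0.42 and 0.60 ± 0.42 in the Dec. and Sept. lots. All 4 probes of desaturation and elongation were above 0 in both lots. Of all probes, 46.6% were above 0 in the Dec. lot and 48% in the Sept. lot. The count is a description, since A_05_P248839 was chosen on its Dec. value and the elongase names come from the study's liver lists. At the study's threshold, applied here to limma (unadjusted p up to 0.05 and at least 1.2-fold), neither elongase probe passed in either lot. Neither desaturase probe passed in the Sept. lot. That threshold was passed toward large fish by 6.54% of probes in the Dec. lot and by 1.16% in the Sept. lot, and toward small fish by 7.59% and 1.63%.

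Other probes of lipid metabolism were set beside the desaturases by role. Most names on this array come from the study's own lists of differing genes, so the direction of a named group is not independent evidence. A pass in a lot for which the study listed the probe is likewise only a description. Over 9 role lists and leaving out both desaturase probes, 33 of 45 tested probes were above 0 in the Dec. lot with a median of 0.26 (0.32 in Dec. pair 2 and 0.07 in Dec. pair 1), and 27 of 49 were above 0 in Sept. fish (median 0.03), beside medians of -0.01 over all probes in either lot. At the study's threshold, 14 were higher in large and 8 higher in small Dec. fish, and 5 and 2 in the Sept. lot. Of the probes not listed for muscle, 17 of 20 were above 0 in the Dec. lot, with 3 past the threshold toward large fish. Their Dec. median was 0.20, with 0.19 in pair 2 and 0.07 in pair 1. Of these 20, 12 were sterol synthesis probes, several for the same genes, and 11 of the 12 were above 0. All 3 that passed were sterol probes. In the Sept. lot 11 of 21 were above 0 (median 0.02) and 0 passed. By limma at an adjusted p under 0.05 there were 0 calls among all probes in either lot, where 6122 Dec. probes and 1482 Sept. probes had an unadjusted p up to 0.05.

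Enzymes that feed fatty acid synthesis were not uniform. NADP-dependent malic enzyme (A_05_P419472), a source of NADPH, was at 1.06 ± 0.11 in the Dec. lot and -0.01 ± 0.11 in the Sept. lot, with its Dec. pool pairs at 1.02 and 1.10. One ATP citrate lyase probe (A_05_P411167), for the enzyme that supplies acetyl-CoA, was at 0.81 ± 0.15 in the Dec. lot, whereas the other (A_05_P412117) was at -0.43 ± 0.14. All of these passed the study's threshold in the Dec. lot, with unadjusted limma p from 5.0e-04 to 0.037, and none passed it in the Sept. lot. The study listed each of them for Dec. muscle from these same arrays, so the Dec. passes are a description and no independent evidence.

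Among probes for fatty acid uptake and transport, 6 of 6 tested in the Dec. lot were above 0. Of these, 4 passed the threshold toward large fish, beside 6.54% of all probes. The 4 were those the study listed for Dec. muscle, and of the 2 tested probes not so listed 0 passed. Lipoprotein lipase (A_05_P429962), which frees fatty acids from circulating lipoproteins, was at 1.47 ± 0.20 in the Dec. lot and 0.50 ± 0.20 in the Sept. lot. Heart-type fatty acid-binding protein (A_05_P249654) was at 0.88 ± 0.15 and 0.14 ± 0.15 in the Dec. and Sept. lots, and its other probes (A_05_P263974 and A_05_P424767) were at 1.08 ± 0.27 and 1.07 ± 0.15 in the Dec. lot. Liver-type fatty acid-binding protein (A_05_P263874) was at 4.77 in Dec. pair 2 and 0.18 in Dec. pair 1 and did not pass the threshold, nor did apolipoprotein b-100 (A_05_P486052), at 2.99 and -0.02 in the same pairs, or apolipoprotein l3-like (A_05_P451048), at 0.22 ± 0.11 over the Dec. lot. Platelet glycoprotein 4 (A_05_P270029), the fatty acid carrier also called CD36, was at 0.01 ± 0.10 in the Dec. lot and at -0.53 ± 0.10 in the Sept. lot, where it passed toward small fish. In the Sept. lot 7 of 8 uptake probes were above 0 and 3 passed toward large fish, beside 1.16% of all probes. Of the 3, 2 were for liver fatty acid-binding proteins (A_05_P454457 at 1.05 ± 0.13 and A_05_P455512 at 0.92 ± 0.27). The other was for the heart type (A_05_P424767 at 0.43 ± 0.15). The study listed both liver probes and platelet glycoprotein 4 for Sept. muscle. Of the 4 uptake probes not listed for the Sept. lot, 1 passed. All 4 apolipoprotein probes were above 0 there, and 2 passed toward large fish, both listed by the study for that lot.

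Storage and breakdown ran in both directions. Adipose differentiation-related protein (A_05_P427297), a coat protein of lipid droplets, was at 1.15 ± 0.26 in the Dec. lot and passed toward large fish, and hormone-sensitive lipase (A_05_P336397), which breaks stored fat down, was at -0.39 ± 0.08 and passed toward small fish. Diacylglycerol O-acyltransferase 2 (A_05_P277787), which completes triglycerides, and monoglyceride lipase (A_05_P392532) were at 0.66 ± 0.28 and 0.32 ± 0.15 without passing. Beta-oxidation and carnitine probes had a Dec. median of -0.16, with 2 of 6 above 0, 1 past the threshold toward large fish and 2 toward small fish. Of these, 2,4-dienoyl-CoA reductase (A_05_P301357), which handles the double bonds of polyunsaturated chains during oxidation, was at -0.33 ± 0.10 in both lots and passed toward small fish in each. Very long-chain acyl-CoA dehydrogenase (A_05_P439167), the trifunctional protein beta subunit (A_05_P418787) and carnitine O-acetyltransferase (A_05_P272599) were at -0.01 ± 0.07, -0.31 ± 0.10 and -0.45 ± 0.19 in the Dec. lot, the trifunctional protein past the threshold. The other carnitine acetyltransferase probe (A_05_P453022) was at 0.81 ± 0.10 and was the probe that passed toward large fish.

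Sterol synthesis, which like fatty acid synthesis and desaturation is known to be controlled by the SREBP family of factors, had 12 of 14 probes above 0, 1 of which (hydroxymethylglutaryl- mitochondrial-like) has a name of ketone body metabolism, in the Dec. lot (median 0.14) and 4 of 14 in the Sept. lot (median -0.05). In the Dec. lot 4 passed the threshold toward large fish and 1 toward small fish, and in the Sept. lot 0 passed. One lathosterol oxidase-like probe (A_05_P251024) was at 0.73 ± 0.23 in the Dec. lot and passed toward large fish, and the other (A_05_P371977) was at 0.01 ± 0.11. The 4 probes of 7-dehydrocholesterol reductase, which makes cholesterol, disagreed: A_05_P271219 was at -0.47 ± 0.08 and passed toward small fish, A_05_P259754 at 0.29 ± 0.10 passed toward large fish, and A_05_P377532 at 0.25 ± 0.07 and A_05_P472497 at 0.17 ± 0.12 did not pass. Of the probes named sterol-C4-methyl oxidase-like, A_05_P371933 was at 2.10 in Dec. pair 2 and 0.04 in Dec. pair 1, the same imbalance as A_05_P248839, and A_05_P477862 was at 0.17 and -0.46 in these pairs. Neither passed.

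Of the receptors that sense lipids, retinoid X receptor beta (A_05_P436752), the partner of the PPARs, was at 0.83 ± 0.12 in the Dec. lot and PPAR beta (A_05_P486222) at -0.79 ± 0.22, past the threshold in opposite directions. PPAR gamma (A_05_P248874) and pparb2a (A_05_P249144) were at 0.02 ± 0.15 and -0.15 ± 0.09 without passing. Among genes acting on the products of the desaturases, arachidonate 5-lipoxygenase-activating protein (A_05_P404592), needed for leukotriene synthesis, was at 0.93 ± 0.12 in the Dec. lot and passed toward large fish. Leukotriene B4 receptor (A_05_P434107) at -0.52 ± 0.08 and prostaglandin reductase 1-like (A_05_P372057) at -0.49 ± 0.11 passed toward small fish, and group XIIA secretory phospholipase A2 (A_05_P253794) was at 0.26 ± 0.12 without passing.

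**Figure D3:**
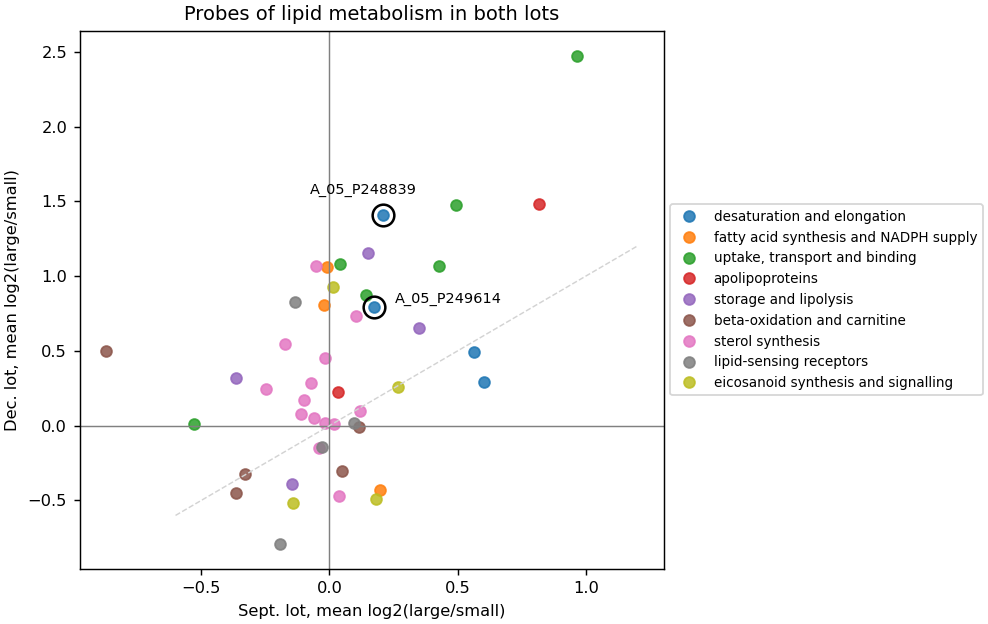
Mean log2(large/small) of each lipid metabolism probe in the Dec. lot (vertical axis) and the Sept. lot (horizontal axis), coloured by role, with the desaturase probes circled and equal values in both lots on the dashed line. A_05_P248839 lies at 1.41 and 0.21 and A_05_P249614 at 0.80 and 0.17, above the line with most of the probes around them.

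Markers of red blood cells, fat cells, slow muscle and nerve, and of plasma proteins secreted by the liver, were listed by pool pair. Most of their names come from the study's own lists, so their counts above or below 0 are descriptions. In bulk mRNA, fewer cells of a type and less RNA per cell cannot be told apart. Red blood cell probes had a median of 3.16 in Dec. pair 2 and 0.05 in Dec. pair 1, with 10 of 12 above 0 over the Dec. lot, and 0.68 and 0.65 in Sept. pairs 2 and 1. Plasma proteins of the liver had medians of 1.49 and 0.45 in Dec. pairs 2 and 1 (8 of 10 tested above 0). In Sept. pairs 2 and 1 their medians were 1.24 and 0.79 (19 of 21). The Dec. medians rest on the 10 of 21 probes with a value on all Dec. arrays, so the lots are not compared on the same set. A_05_P248839, at 2.28 and 0.53 in Dec. pairs 2 and 1, was higher in the same pair as both lists, and their part in its value was not tested.

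Fat cell markers had medians of 0.99 and 0.67 in Dec. pairs 2 and 1 (4 of 5 above 0) and of 0.34 and 0.36 in Sept. pairs 2 and 1, but the markers disagreed. Lipoprotein lipase was at 1.11 and 1.84 in Dec. pairs 2 and 1, adipose differentiation-related protein at 1.63 and 0.67, and hormone-sensitive lipase at -0.41 and -0.37. Slow muscle markers were at -1.996 and -1.37 in Dec. pairs 2 and 1 (0 of 7 above 0) and at 0.02 and 0.60 in Sept. pairs 2 and 1. The study listed all 7 of these for Dec. muscle, so their Dec. direction is no separate evidence. Myelin and nerve markers had medians below 0 in all pairs, and the study listed all 7 of them for Sept. muscle. The part of these cells in the desaturase values was not tested.

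**Figure D4:**
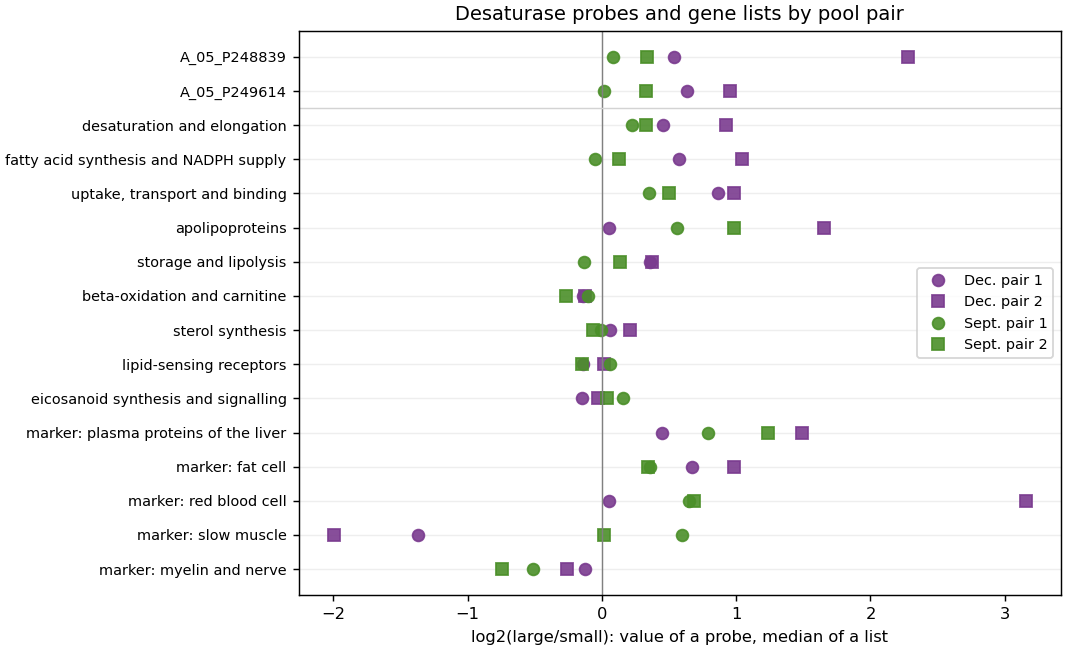
Log2(large/small) by pool pair (circles, pair 1; squares, pair 2) in the Dec. lot (purple) and the Sept. lot (green), as the value of each desaturase probe and as the median of each role or marker list. A_05_P248839 and the red blood cell, plasma protein and apolipoprotein lists each have Dec. pair 2 well to the right of Dec. pair 1. The Dec. medians rest on 2 tested probes for apolipoproteins and on 10 of 21 for plasma proteins. Apolipoprotein b-100 is at 2.99 and -0.02 in Dec. pairs 2 and 1, and apolipoprotein l3-like at 0.32 and 0.13.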

How the data were processed

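Array images were read by the authors with GenePix, who flagged poor spots by hand, removed spots of low signal and applied lowess in GeneSpring. They deposited log2 ratios, 1 column per array; a build and an annotation release are not given in the sources used here. Whether the spread of the arrays was scaled is unknown. Each deposited column was negated, with dye swaps taken as already turned: 966 of 966 study listings then had the study's sign, and 652 if swaps were left unturned. The 60 control features were left out of 43663 rows, leaving 43603 probes, 1494 of them named. Names came from the platform annotation, which can be old, and from the study's lists.

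Swapped arrays were averaged to 1 value per pool pair. Probes with values on all 4 arrays of a lot were fitted with limma 3.58.1 (lmFit and eBayes, R 4.3.3), with a mean per lot and a shared spread, and Benjamini-Hochberg adjustment ran over all probes tested. The labels call the pools separate replicates, so p-values measure the spread between pools. That spread includes the difference in size rank between the pairs and does not reach beyond the families of the lot. The fit was tested on simulated data with normal noise of the same spread in both lots, so lots of unequal spread were not covered. The study's threshold was applied to the unadjusted p of limma and not to that of the study's own t-test, so its calls differ from the study's lists.

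The members and lists were chosen with earlier results of these data known. Probes named in the text by a fixed rule were both desaturase probes, every measured probe of a role list of up to 4 and otherwise the 2 highest and 2 lowest by the mean of both lots, and for each desaturase probe the 5 named probes of highest correlation and the 3 nearest probes. Outside this rule the text also names other probes of the same genes, some list probes that passed the threshold, a sterol list probe of doubtful name, and examples from the tally of Dec. pair 2. The numbers of the pool pairs were not treated as pairing between lots.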

Additional observations from a re-analysis of the deposited data

How the results depend on the processing

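On Alexa Fluor 647 arrays alone the Sept. mean of A_05_P248839 was -0.001, and on Alexa Fluor 555 arrays alone that of A_05_P249614 was -0.13. The Dec. mean of A_05_P249614 was 1.55 on Alexa Fluor 555 arrays and 0.0389 on Alexa Fluor 647 arrays, and 0.26 and 1.33 without the Alexa Fluor 555 and the Alexa Fluor 647 array of Dec. pair 2 (leaving out single arrays was chosen after seeing the data). The Sept. difference of the probes was 0.54 and -0.47 on the single orientations, and -0.26, 0.33, -0.18 and 0.25 without the Alexa Fluor 555 or 647 array of pair 1 and then of pair 2. Leaving out a pool pair gave Dec. means of 0.53 to 2.28 for A_05_P248839 and 0.64 to 0.95 for A_05_P249614, Sept. means of 0.08 to 0.34 and 0.02 to 0.33, and differences of the probes of -0.10 to 1.33 (Dec.) and 0.01 to 0.06 (Sept.). The Sept. adjusted p ran from 0.880 to 1.0 for A_05_P248839 and from 0.792 to 1.0 for A_05_P249614 over all settings. The Dec. median of all lipid lists, desaturases included, was 0.29, and 0.0726 without Dec. pair 2 (0.0726 to 0.33 over the pairs, chosen after seeing the data).

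Probes past the study's threshold numbered 5619 in the Dec. lot and 3566 with arrays scaled to equal spread. With the methods' t-test they numbered 892 on arrays and 985 on pool pairs. In the Sept. lot they numbered 1157, 369 and 252 with that test, and 1183 to 2150 without a pool pair (1329 toward large and 821 toward small fish without pair 1, against 480 and 677). Adjusted calls were 0 in both lots, but 390 in the Dec. lot without Dec. pair 1 (0 to 390), 17 with the pool pair as a random block, and 3 (Dec.) and 6 (Sept.) with the methods' t-test on pool pairs, where some probes had identical pool pairs. For Dec. minus Sept., 3483 probes had an unadjusted p up to 0.05, 2207 after scaling and 2066 to 5719 without a pool pair. The pool pair number as a replicate block gave 3579, and the deviations of same-numbered pairs correlated at 0.07. With 2 pool pairs per lot this value is the same for either number, and it does not settle whether the numbers pair the lots. The cause of these changes was not tested. With 2 pool pairs per lot, small size effects on the desaturases were not detectable. Large ones could be missed too: in the main fit the lowest adjusted limma p over all probes was 0.1671 in the Dec. lot and 0.9996 in the Sept. lot.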

Other observations

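On both arrays of Dec. pair 2, 137 probes were at 2 or more, 40 of them named and A_05_P248839 among them. By the name patterns of the lists, 8 of the named ones were red blood cell probes, 3 plasma proteins of the liver, 1 an apolipoprotein (apolipoprotein b-100), 1 a fatty acid carrier (liver-type fatty acid-binding protein) and 1 a sterol enzyme (sterol-c4-methyl oxidase-like), and 25 were in no list. Some of these 25 also carry names of plasma proteins that the patterns did not take, among them beta-2-glycoprotein 1-like, c1 inhibitor and trf. A_05_P249614 was not among them. Probes at or above A_05_P248839 on both of these arrays numbered 108 (0.259% of 41690). This tally was chosen after the values were seen.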
